A study of Homo sapiens with 12 samples.

Results

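The 9 genes described here encode DNA-binding factors of the ETS family (ETV1, ETV4, ETV5, ETS1, ETS2 and ELK3) and of the EGR family (EGR1, EGR2 and EGR3). They were chosen by gene symbol, and all 9 were found among the 23273 genes listed for each of 2 human melanoma cell lines, COLO858 and MMACSF. Poly(A) RNA was sequenced from cells given the solvent DMSO, or vemurafenib at 0.2 µM for 24 or 48 h. Vemurafenib inhibits the mutant BRAF kinase that drives ERK signalling in such tumours. Each line had 2 libraries in each of the 3 groups, 12 in all, from plates seeded in duplicate, so p-values measure the spread between plates of 1 line. No label says how long the DMSO cells were kept, and both times were compared with the same 2 DMSO libraries of their line. Values are the FPKM that the authors deposited, a read level corrected for transcript length and for the size of the library. The depth of the libraries is unknown. Whether the tables of the 2 lines were scaled together is also not known, so levels of the lines are given side by side and only changes were compared between lines.

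Summed FPKM per library ranged from 670310 to 1013038 in COLO858 and from 726083 to 856083 in MMACSF, and 11679 to 11972 genes had at least 1 FPKM. A single small RNA gene, MIR4461, took 14.1 to 43.4% of the sum in COLO858 and 14.7 to 33.0% in MMACSF, and its share was higher in replicate 2 in every group. In MMACSF all 8 melanocyte lineage markers (MITF, SOX10, PMEL, MLANA, TYR, DCT, TYRP1, S100B) reached 1 FPKM in every library. In COLO858 6 of the 8 did, and MLANA, which encodes a melanosome antigen, was between 0.299 and 0.725 FPKM in all libraries. The summed level of these markers was 702 to 717 FPKM in COLO858 under DMSO, 3922 to 4158 at 24 h and 4144 to 4149 at 48 h. In MMACSF it was 11159 to 11373, 15589 to 16776 and 16831 to 17555 FPKM. The largest of the 8 in COLO858 was DCT, at 252 and 283 FPKM in DMSO, 2788 and 3041 at 24 h, and 2139 and 2161 at 48 h. In MMACSF the largest was PMEL, at 7940 to 11738 FPKM. Single markers did not all follow the sum. MITF in COLO858 held 56.2 and 79.2 FPKM in DMSO and 57.0 and 77.6 at 48 h. S100B in MMACSF went from 857 and 782 FPKM in DMSO to 706 and 640 at 48 h. The leukocyte markers PTPRC, CD3E and CD14 and all 5 endothelial markers stayed under 1 FPKM in all libraries of both lines. The sum of the 5 leukocyte markers was 13.3 to 16.8 FPKM in COLO858 under DMSO, 7.69 to 9.31 at 24 h and 4.31 to 5.80 at 48 h, and in MMACSF 82.5 to 89.2, 49.9 to 59.9 and 77.4 to 83.9. Most of that sum was 1 gene, CD68, at 3.86 to 14.2 FPKM in COLO858 and 48.3 to 84.8 in MMACSF. LYZ held 0.360 to 2.26 FPKM in COLO858 and 0.455 to 4.38 in MMACSF. The 5 keratinocyte markers summed to 0.796 to 1.76 FPKM in COLO858 and 21.0 to 39.3 in MMACSF, and 4 of them were under 1. The other, CDH1, was at 0.204 to 1.18 FPKM in COLO858 and made up nearly all of the sum in MMACSF, at 20.8 to 39.2. The sum of the 6 fibroblast markers was 9.29 to 12.1 FPKM in COLO858 under DMSO, 17.8 to 20.8 at 24 h and 24.9 to 35.3 at 48 h, with DCN under 1. In MMACSF it was 57.9 to 79.2, 45.1 to 53.5 and 20.2 to 28.9 FPKM, with COL1A1, COL3A1 and PDGFRB under 1. LUM made up most of the fibroblast sum in each library, at 5.30 to 25.6 FPKM in COLO858 and 17.9 to 73.3 in MMACSF. The part of these shifts in the changes below was not tested, and fewer cells with a transcript cannot be told apart from less of it per cell.

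ETS factors share a winged helix-turn-helix domain that binds a GGA core, and many of them are switched on by ERK. ETV1, ETV4 and ETV5 form the PEA3 group: they rise with receptor tyrosine kinase and ERK signalling, are repressed at the DNA by CIC, and their proteins are degraded through the ubiquitin ligase COP1. ETS1 and ETS2 are activators that ERK phosphorylates on a shared threonine. ELK3 is a ternary complex factor, which binds beside serum response factor (SRF) at CArG boxes and represses until ERK phosphorylates it. EGR1, EGR2 and EGR3 are zinc finger factors and immediate early genes, transcribed within minutes of ERK activation through those same SRF complexes.

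A motif tied to this wiring was found before 3 of the members, and the promoters of 2 of them, EGR1 and ETV1, are shown here. RefSeq promoter windows, on GRCh38.p14, covered 5 of the 9 genes in 14 windows, each of the 250 bases before a transcript start. The CArG box, to which SRF binds, was searched on both strands along with the CIC octamer (TGAATGAA or TGAATGGA) and the EGR site (GCGTGGGCG or GCGGGGGCG). Of all 35116 windows of this length, 1.16% held a CArG box, 2.19% the CIC octamer and 5.37% an EGR site. The only EGR1 window held 2 CArG boxes, whose first bases lie 105 and 83 bases before the start. One of 6 ETV1 windows held the CIC octamer, from 125 bases before its start. One of 3 EGR2 windows held a CArG box from 71 bases before its start, and that window is not printed because it overlaps an EGR2 exon. No EGR site was found in a member's window, and none of these motifs in the 2 windows of ETS2 or the 2 of ELK3. A match describes letters and not a bound site. Exact matching placed the printed windows on GRCh37, at chr5:137800918-137801167 (plus strand) for EGR1 and chr7:14031051-14031300 (minus strand) for ETV1. They are written 5′ to 3′ along the gene, with the CArG boxes of EGR1 and the CIC octamer of ETV1 in capitals.
EGR1: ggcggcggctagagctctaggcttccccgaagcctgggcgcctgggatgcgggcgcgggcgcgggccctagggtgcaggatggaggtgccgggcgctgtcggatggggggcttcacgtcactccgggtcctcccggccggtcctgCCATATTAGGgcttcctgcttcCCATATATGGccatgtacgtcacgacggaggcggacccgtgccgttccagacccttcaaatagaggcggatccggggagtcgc
ETV1: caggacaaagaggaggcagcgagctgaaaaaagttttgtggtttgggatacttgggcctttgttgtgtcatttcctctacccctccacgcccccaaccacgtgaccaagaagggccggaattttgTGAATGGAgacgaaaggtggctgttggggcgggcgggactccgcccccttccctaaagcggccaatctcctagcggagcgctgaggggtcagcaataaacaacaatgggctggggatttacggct

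In DMSO the PEA3 factors ETV4 and ETV5 had the 2 highest levels of the 9 in both lines, in FPKM, which is per transcript length. In COLO858 the order of means was ETV4, ETV5, ELK3, ETS1, ETV1, EGR1, EGR3, ETS2 and EGR2. The libraries of ELK3 and ETS1, of ETS1 and ETV1, and of ETV1 and EGR1 overlapped, so those neighbours did not differ beyond their spread. In MMACSF the order was ETV4, ETV5, ETS1, ELK3, ETV1, ETS2, EGR1, EGR3 and EGR2, and only ETV1 and ETS2 overlapped. Under vemurafenib ETS1 stood first in both lines at both times, and ETV4 fell to the fifth place in COLO858 and the sixth in MMACSF. In COLO858 at 24 h ETS1 was followed by ETV5, ELK3, ETV1, ETV4, ETS2, EGR1, EGR3 and EGR2, with ETV5 overlapping ELK3 and EGR3 overlapping EGR2. At 48 h the order after ETS1 was ELK3, ETV5, ETV1, ETV4, EGR1, ETS2, EGR3 and EGR2, where again EGR3 and EGR2 overlapped. In MMACSF it was ELK3, ETV5, ETS2, ETV1, ETV4, EGR2, EGR1 and EGR3 at 24 h, with EGR2 overlapping EGR1. At 48 h it was ETV5, ELK3, ETS2, ETV1, ETV4, EGR1, EGR2 and EGR3, with overlap of ETV5 and ELK3, of ETV1 and ETV4, and of EGR1 and EGR2. The plot of FPKM by library shows these levels.

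**Figure D1:**
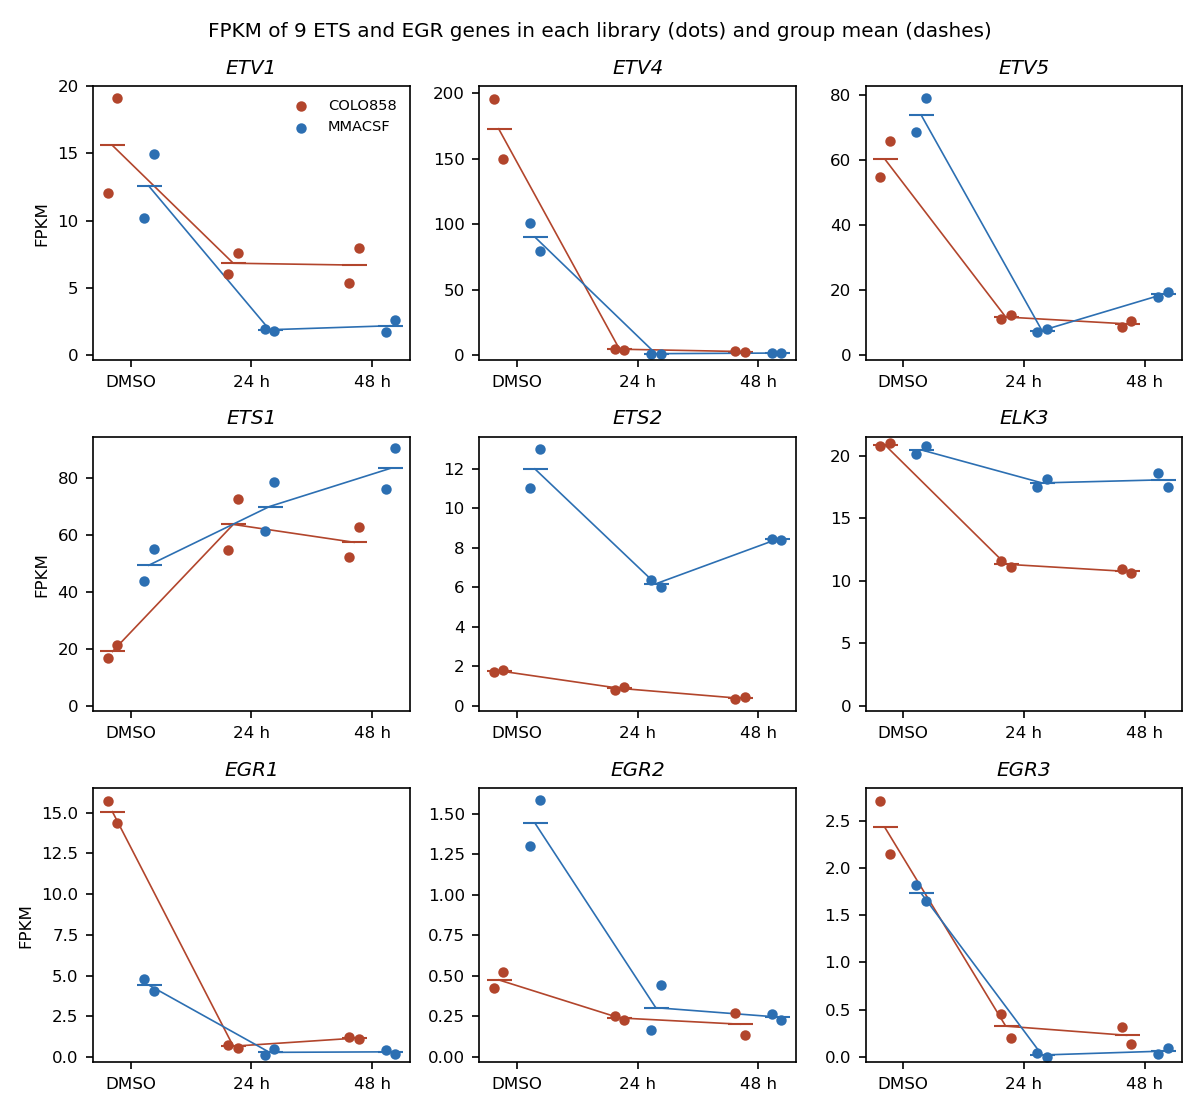
FPKM of the 9 genes in the 12 libraries, 1 panel per gene, with DMSO, 24 h and 48 h of each line along the x axis; points are libraries, dashes are group means (n = 2) joined by a line, and colour marks the line. ETV4 drops from between 79.4 and 196 FPKM in the DMSO libraries to between 1.01 and 4.86 under drug, while ETS1 lies above its DMSO libraries in both lines.

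ETV4 had the largest log2 change of the members tested in each comparison with DMSO. The gene lies at chr17:41605212-41656988 (minus strand, GRCh37) and overlaps DHX8 on the other strand. Unnamed transcripts overlap ETS2, ELK3 and EGR3 on the other strand and EGR2 on the same one, and since it is not given whether reads were counted by strand, reads of such pairs cannot be told apart. In COLO858 its replicates held 196 and 149.9 FPKM in DMSO, 4.86 and 4.06 at 24 h, and 2.99 and 2.38 at 48 h. In MMACSF they held 101 and 79.4 FPKM in DMSO, 1.08 and 1.01 at 24 h, and 1.75 and 1.28 at 48 h. All drug libraries were thus far below both DMSO libraries of their line. In COLO858 the mean fell from 173 ± 32.4 (SD, n = 2) to 4.46 ± 0.567 FPKM at 24 h, 38.8-fold lower, and to 2.69 ± 0.432 at 48 h, 64.3-fold lower. MMACSF fell from 90.1 ± 15.1 (SD, n = 2) to 1.04 ± 0.052 FPKM, 86.4-fold lower, and to 1.52 ± 0.336, 59.4-fold lower. The change was fitted by limma on log2(FPKM + 1), with Benjamini-Hochberg adjustment over all genes tested and a threshold of 0.01, a scale that understates the change of low genes. On this scale ETV4 changed by -4.98 (SE 0.197, adjusted p = 0.000547) at 24 h and by -5.55 (SE 0.197, adjusted p = 0.000262) at 48 h in COLO858. In MMACSF it changed by -5.47 (SE 0.182, adjusted p = 0.00035) and by -5.17 (SE 0.182, adjusted p = 0.000345). These 4 calls stood whichever library of the line was left out. Such a fit has 1 library left in a group and less information on the spread, so a call can be lost without the estimate moving.

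ETV5, at chr3:185764103-185828107 (minus strand), fell in both lines and then differed between them in its course. It overlaps DGKG on the same strand and ETV5-AS1 on the other. COLO858 held 54.8 and 65.7 FPKM in DMSO, 11.2 and 12.2 at 24 h, and 8.78 and 10.4 at 48 h. MMACSF held 68.6 and 79.2 FPKM in DMSO, 7.17 and 7.90 at 24 h, and 18.0 and 19.4 at 48 h. In MMACSF both 48 h libraries therefore lay above both 24 h libraries and still below DMSO. The mean in COLO858 went from 60.3 ± 7.74 to 11.7 ± 0.681 (SD, n = 2) and 9.59 ± 1.15 FPKM, 5.15-fold and 6.28-fold lower. In MMACSF it went from 73.9 ± 7.51 to 7.53 ± 0.517 (SD, n = 2) and 18.7 ± 0.988 FPKM, which are 10.2% and 25.3% of DMSO. By limma ETV5 changed by -2.27 (SE 0.164, adjusted p = 0.0014) and by -2.53 (SE 0.164, adjusted p = 0.00115) in COLO858. Its changes were -3.13 (SE 0.134, adjusted p = 0.000565) and -1.93 (SE 0.134, adjusted p = 0.00115) in MMACSF. Leaving out a DMSO or a drug library of the comparison took the adjusted p past 0.01, to at most 0.0164 in COLO858 at 24 h and 0.0175 in MMACSF at 48 h. For COLO858 at 48 h the second DMSO library and either 48 h library did so (at most 0.0124), and the 24 h call in MMACSF stood throughout.

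ETV1, at chr7:13930854-14031050 (minus strand), fell past the threshold in MMACSF. COLO858 held 12.05 and 19.2 FPKM in DMSO, 6.06 and 7.61 at 24 h, and 5.39 and 8.002 at 48 h. MMACSF held 10.2 and 14.95 FPKM in DMSO, 1.97 and 1.80 at 24 h, and 1.74 and 2.62 at 48 h. The groups did not overlap in either line, but the DMSO replicates of COLO858 were far apart for their mean. That mean was 15.6 ± 5.02 FPKM (SD, n = 2) against 6.83 ± 1.10 and 6.70 ± 1.85 with drug, 2.28-fold and 2.33-fold lower. In MMACSF it went from 12.6 ± 3.35 (SD, n = 2) to 1.88 ± 0.123 and 2.18 ± 0.617 FPKM, 6.69-fold and 5.78-fold lower. The log2 change in MMACSF was -2.22 (SE 0.237, limma adjusted p = 0.0049) at 24 h and -2.09 (SE 0.237, adjusted p = 0.00464) at 48 h. In COLO858 it was -1.06 (SE 0.290, limma adjusted p = 0.0507) and -1.10 (SE 0.290, adjusted p = 0.046), which did not pass. These COLO858 changes passed only with the replicate number as a block (limma adjusted p = 0.0016 and 0.00149). Whichever MMACSF library was left out, both calls were lost, with limma adjusted p from 0.0171 to 0.0357 at 24 h and from 0.0133 to 0.0396 at 48 h.

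Among the EGR factors, EGR1 fell in both lines at both times. It lies at chr5:137801168-137804992 (plus strand), just after the promoter printed above. COLO858 held 15.7 and 14.4 FPKM in DMSO, 0.744 and 0.584 at 24 h, and 1.20 and 1.10 at 48 h. MMACSF held 4.77 and 4.07 FPKM in DMSO, 0.104 and 0.470 at 24 h, and 0.434 and 0.204 at 48 h. In COLO858 the 48 h libraries sat above the 24 h libraries, and in MMACSF the drug groups overlapped each other. In COLO858 the mean fell from 15.05 ± 0.956 (SD, n = 2) to 0.664 ± 0.113 FPKM, 22.7-fold lower, and to 1.15 ± 0.071, 13.0-fold lower. In MMACSF it fell from 4.42 ± 0.494 (SD, n = 2) to 0.287 ± 0.259 FPKM, 15.4-fold lower, and to 0.319 ± 0.163, 13.9-fold lower. EGR1 changed by -3.27 (SE 0.142, limma adjusted p = 0.000595) and by -2.90 (SE 0.142, adjusted p = 0.000552) on the log2(FPKM + 1) scale in COLO858. In MMACSF EGR1 reached the minimum of 1 FPKM through DMSO only, so it could be tested only by being higher there, and the changes were -2.09 (SE 0.212, limma adjusted p = 0.00441) and -2.04 (SE 0.212, adjusted p = 0.00365). The COLO858 calls stood without any 1 library, while in MMACSF the limma adjusted p reached 0.0158 to 0.0350 at 24 h, whichever was left out. At 48 h it reached at most 0.0313, and the call was lost without any DMSO or 48 h library and stood without either 24 h library.

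EGR3, on chromosome 8, had low levels throughout and fell to near 0. COLO858 held 2.71 and 2.15 FPKM in DMSO, 0.451 and 0.202 at 24 h, and 0.318 and 0.142 at 48 h. MMACSF held 1.82 and 1.65 FPKM in DMSO, 0.0429 and 0 at 24 h, and 0.0279 and 0.0967 at 48 h. Since EGR3 passed the minimum of 1 FPKM through its DMSO group only, in both lines, it could be tested only by being higher there. In COLO858 its log2 changes were -1.37 (SE 0.178, limma adjusted p = 0.00617) and -1.48 (SE 0.178, adjusted p = 0.00541), and the mean FPKM was 7.43-fold and 10.6-fold lower. In MMACSF they were -1.42 (SE 0.152, limma adjusted p = 0.00495) and -1.36 (SE 0.152, adjusted p = 0.00446), and no ratio is given at 24 h, where 1 library is listed at 0. Without any 1 library the call was lost in COLO858 at both times and in MMACSF at 24 h, with limma adjusted p up to 0.0351. In MMACSF at 48 h it was lost without any DMSO or 48 h library (at most 0.0305) and stood without either 24 h library.

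EGR2, which directs Schwann cell myelination and hindbrain patterning in development, had the lowest DMSO mean of the 9 in both lines. Its gene is at chr10:64571756-64578927 (minus strand). In COLO858 no group reached a mean of 1 FPKM, so EGR2 was not tested there. It held 0.425 and 0.526 FPKM in DMSO, 0.251 and 0.231 at 24 h, and 0.270 and 0.135 at 48 h. In MMACSF it held 1.30 and 1.59 FPKM in DMSO, 0.166 and 0.443 at 24 h, and 0.264 and 0.230 at 48 h. The drug libraries lay below DMSO in both lines. In MMACSF the means, 1.44 ± 0.203 (SD, n = 2) against 0.304 ± 0.196 and 0.247 ± 0.024 FPKM, were 4.74-fold and 5.84-fold lower. There EGR2 also reached the minimum through DMSO only, and the log2 changes of -0.91 (SE 0.180, limma adjusted p = 0.0241) and -0.97 (SE 0.180, adjusted p = 0.0171) did not pass the threshold.

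ETS1, at chr11:128328656-128457453 (minus strand, with ETS1-AS1 on the other), was the only member higher with drug. COLO858 held 16.9 and 21.3 FPKM in DMSO, 54.7 and 72.6 at 24 h, and 52.1 and 62.7 at 48 h. MMACSF held 43.7 and 55.0 FPKM in DMSO, 61.4 and 78.5 at 24 h, and 76.0 and 90.6 at 48 h. Every drug library was above both DMSO libraries of its line. The mean in COLO858 rose from 19.1 ± 3.11 (SD, n = 2) to 63.7 ± 12.7 FPKM at 24 h, 3.33-fold higher, and stood at 57.4 ± 7.51, 3.0-fold higher, at 48 h. By limma it rose by 1.68 (SE 0.210, adjusted p = 0.00564) and by 1.54 (SE 0.210, adjusted p = 0.00755). In MMACSF the mean was 49.3 ± 8.02 (SD, n = 2) in DMSO, 69.9 ± 12.1 at 24 h and 83.3 ± 10.3 FPKM at 48 h, 1.42-fold and 1.69-fold of DMSO. These changes of 0.49 (SE 0.191, limma adjusted p = 0.13) and 0.75 (SE 0.191, adjusted p = 0.0421) did not pass. With the replicate number as a block they did (limma adjusted p = 0.00376 and 0.00133), although the labels do not say what the numbers share. Whichever COLO858 library was left out, the calls were lost, with limma adjusted p from 0.0143 to 0.0354 (24 h) and from 0.0163 to 0.0486 (48 h).

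ETS2, the close relative of ETS1, moved the other way. It lies at chr21:40177107-40196879 (plus strand). COLO858 held 1.74 and 1.83 FPKM in DMSO, 0.830 and 0.961 at 24 h, and 0.337 and 0.442 at 48 h. MMACSF held 11.01 and 13.0 FPKM in DMSO, 6.36 and 6.00 at 24 h, and 8.47 and 8.38 at 48 h. In COLO858 the level was lower at 48 h than at 24 h in both libraries, whereas in MMACSF it was higher. In COLO858 ETS2 passed the minimum through DMSO only; it changed by -0.55 (SE 0.133, limma adjusted p = 0.0352) at 24 h and at 48 h by -1.003 (SE 0.133, adjusted p = 0.00702), a 4.58-fold lower mean FPKM that passed the threshold. In MMACSF the changes of -0.85 (SE 0.140, limma adjusted p = 0.0147) and -0.46 (SE 0.140, adjusted p = 0.0675) did not pass. The 48 h call in COLO858 was lost whichever library was left out, with limma adjusted p from 0.0165 to 0.0402.

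ELK3, at chr12:96588153-96663602 (plus strand), fell in COLO858 with little spread between replicates. COLO858 held 20.8 and 21.0 FPKM in DMSO, 11.6 and 11.1 at 24 h, and 10.9 and 10.6 at 48 h. MMACSF held 20.2 and 20.8 FPKM in DMSO, 17.5 and 18.2 at 24 h, and 18.6 and 17.5 at 48 h. In COLO858 the mean of 20.9 ± 0.156 (SD, n = 2) fell to 11.3 ± 0.337 and 10.8 ± 0.231 FPKM, 1.84-fold and 1.94-fold lower. The log2 change was -0.83 (SE 0.126, limma adjusted p = 0.00997) at 24 h and -0.90 (SE 0.126, adjusted p = 0.00824) at 48 h. In MMACSF the means were 20.5 ± 0.412 (SD, n = 2), 17.8 ± 0.479 and 18.1 ± 0.775 FPKM. The log2 changes there, -0.19 (SE 0.115, limma adjusted p = 0.293) and -0.17 (SE 0.115, adjusted p = 0.324), did not pass, although no drug library overlapped DMSO. Both COLO858 calls were lost whichever library was left out, while the log2 change stayed from -0.85 to -0.80 at 24 h and from -0.92 to -0.88 at 48 h.

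Counted over the list, 8 of 9 genes reached the minimum in COLO858 and 9 of 9 in MMACSF, and 2 and 3 of these did so through DMSO only and so had to be higher there. In COLO858 at 24 h 1 rose and 5 fell, with 4.11% of all 12696 genes tested called higher and 5.71% lower. At 48 h 1 rose and 6 fell, beside 4.74% and 4.73% of all genes. In MMACSF no member rose and 5 fell at each time, while 2.22% of all 12599 genes tested were called higher and 3.6% lower at 24 h, and 3.42% and 5.41% at 48 h. The ETS1 change in MMACSF was the only positive one behind that 0, and its unadjusted p was under 0.05 at both times. Without the genes that passed through DMSO only, 1 of 6 rose and 4 fell at each time in COLO858, and 3 of 6 fell at each time in MMACSF. The median log2 change of the members tested in COLO858 was -1.21 at 24 h and -1.29 at 48 h, beside 0.06 and -0.01 over all genes tested there. For MMACSF these medians were -1.42 and -1.36, beside 0.07 and 0.06. In each of the 4 comparisons all 9 genes had drug libraries that did not overlap DMSO. So did 63.1% and 61.3% of all genes tested in COLO858 and 59.8% and 64.5% in MMACSF, which makes this a weak criterion with 2 libraries a group. Where only the 4 libraries of a comparison were fitted, the members called were 3 in COLO858 at each time. In MMACSF they were 2 at 24 h and 4 at 48 h.

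**Figure D2:**
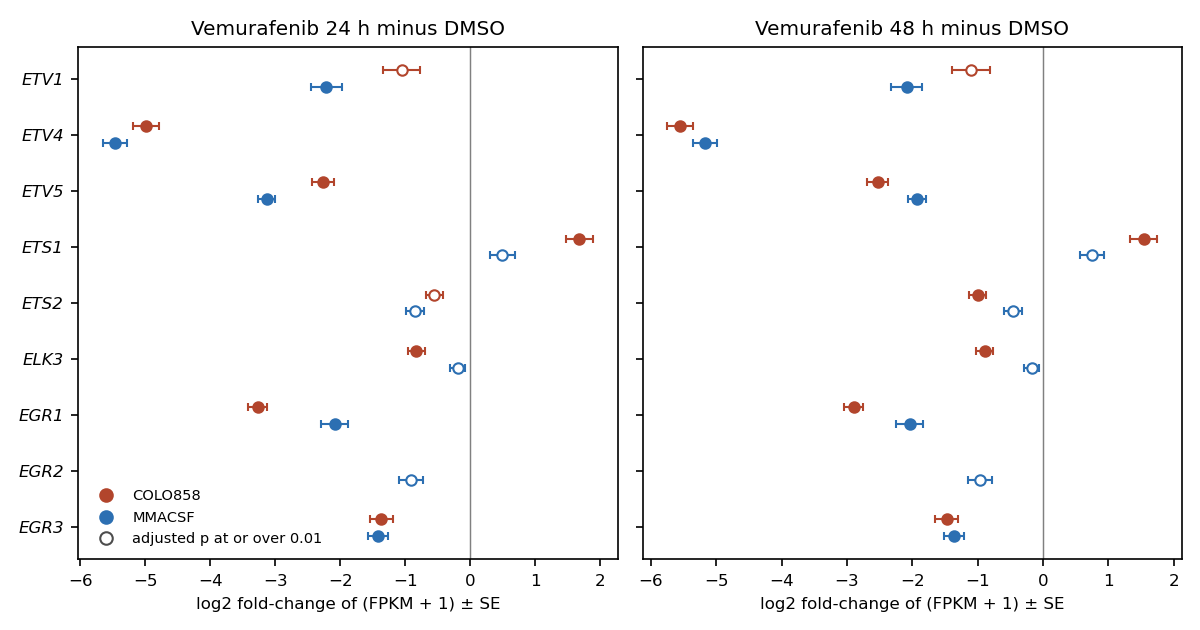
Log2 change in FPKM + 1 against DMSO (x axis) of the members tested, at 24 and 48 h in each line, with points for the limma estimate, bars for its SE and open points for an adjusted p of 0.01 or more. ETV4 lies between -5.55 and -4.98 and ETS1 right of 0 in both lines.

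The make-up of the ETS family by FPKM turned over with drug. Of the 28 human ETS genes, 18 reached a mean of 1 FPKM in some group of COLO858 and 15 in some group of MMACSF. ETV4 made up 46.7 and 38.1% of the summed FPKM of the 28 in the DMSO libraries of COLO858, 2.23 and 1.81% at 24 h, and 1.40 and 1.04% at 48 h. In MMACSF it made up 28.6 and 22.1% in DMSO, 0.506 and 0.429% at 24 h, and 0.750 and 0.483% at 48 h. ETV4 thus went from first of the 28 by mean level to rank 12 and then 13 in COLO858, and to rank 15 at both times in MMACSF.

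The 3 PEA3 factors together held 62.7 and 59.6% of the ETS sum in DMSO in COLO858, 10.2 and 10.6% at 24 h, and 8.05 and 9.12% at 48 h. In MMACSF they held 51.0 and 48.3%, then 4.79 and 4.57%, then 9.18 and 8.77%. ETS1 took 4.04 and 5.41% in DMSO in COLO858, 25.1 and 32.3% at 24 h, and 24.4 and 27.5% at 48 h. In MMACSF it took 12.4 and 15.3%, then 28.8 and 33.5%, then 32.5 and 34.2%, and it ranked 1 of the 28 at both times there. In COLO858 ETS1 ranked 1 at 24 h and 2 at 48 h. Per library, ETV4 was 11.6 and 7.03 times ETS1 in DMSO in COLO858 and 2.31 and 1.44 times in MMACSF. Under drug ETS1 was instead 11.3 to 26.3 times ETV4 in COLO858 and 43.3 to 78.0 times in MMACSF. The sum itself was lower with drug, at 419 and 394 FPKM in DMSO against 213 to 228 in COLO858, and 352 and 359 against 213 to 265 in MMACSF. A share therefore moves with the fall of ETV4 as well as with the gene itself, and these are levels of RNA, not of protein.

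**Figure D3:**
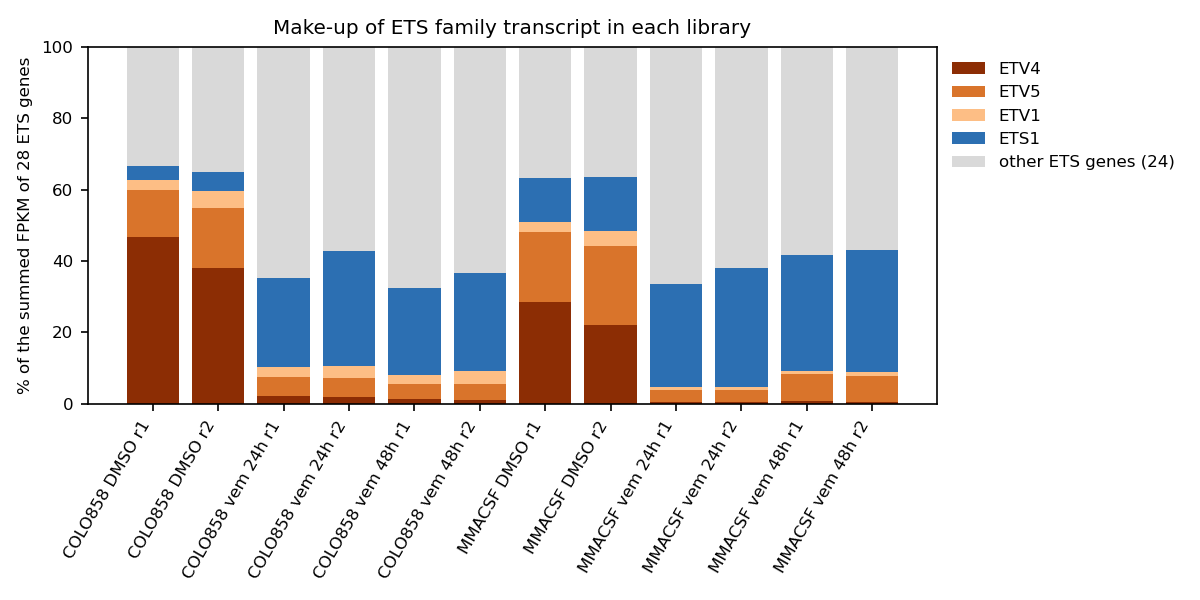
Share of the summed FPKM of the 28 ETS genes (y axis, percent, stacked from 0) taken by ETV4, ETV5, ETV1, ETS1 and the others in each of the 12 libraries. The PEA3 factors hold 48.3 to 62.7% in the DMSO libraries and 4.57 to 10.6% in the drug libraries.

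Between 24 and 48 h no member passed the threshold within a line. In COLO858 limma called 0 of 8, with 3 at an unadjusted p under 0.05, while 1.38% of all genes were called. The 3 were ETV4 at -0.57 (adjusted p = 0.194), ETS2 at -0.45 (adjusted p = 0.139) and EGR1 at 0.37 (adjusted p = 0.231) by limma. In MMACSF limma called 0 of 9, with 2 at an unadjusted p under 0.05, while 0.222% of all genes were called. These were ETV5 at 1.20 (SE 0.134, limma adjusted p = 0.043) and ETS2 at 0.39 (adjusted p = 0.646). The median change of the members tested in COLO858 was -0.12, beside -0.07 over all genes, with 7 of 8 below 0. For MMACSF it was 0.13, beside -0.02 over all genes, with 8 of 9 above 0.

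The lines were compared by the interaction in a fit of all 12 libraries, as the log2 change of COLO858 minus that of MMACSF with its 95% interval. In the change from 24 to 48 h ETV5 differed, at -1.47 (SE 0.194, -1.92 to -1.02, limma adjusted p = 0.00352): its level went down slightly in COLO858 and up in MMACSF. ETV5 was the only 1 of 9 called there, where 2.96% of all 13595 genes tested were, and ETS2 came next at -0.84 (-1.22 to -0.46, limma adjusted p = 0.0205). At 48 h against DMSO ELK3 differed, at -0.72 (SE 0.129, -1.02 to -0.43, limma adjusted p = 0.00701), having fallen further in COLO858. It was the only 1 of 9 called, with 7.48% of all genes called and 7 members at an unadjusted p under 0.05. At 24 h limma called 0 of 9, with 6 at an unadjusted p under 0.05, and 3.71% of all genes were called. The ELK3 difference at 48 h was lost whichever of the 12 libraries was left out, with limma adjusted p from 0.0123 to 0.0351. That of ETV5 was lost without either 24 h library of either line, either 48 h library of MMACSF or the first 48 h library of COLO858 (limma adjusted p at most 0.0209), and stood without the other 5. With only the groups of a contrast in its fit, neither of the 2 calls stood.

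Other members that pointed apart between lines did not pass in this fit, and those that passed with a replicate block are named further below. For ETS1 the rise was larger in COLO858 by 1.18 (0.50 to 1.87, limma adjusted p = 0.0448) at 24 h and by 0.79 (0.11 to 1.47, adjusted p = 0.123) at 48 h. For ETV1 the difference was 1.16 (0.25 to 2.07, limma adjusted p = 0.127) and 0.99 (0.08 to 1.90, adjusted p = 0.147), with the deeper change in MMACSF. For EGR1 it was -1.18 (-1.72 to -0.65, limma adjusted p = 0.0175) and -0.86 (-1.39 to -0.32, adjusted p = 0.0422). With 0.1 FPKM added in place of 1, the EGR1 differences were -0.59 (limma adjusted p = 0.719) and -0.11 (adjusted p = 0.952), and in mean FPKM the falls were 22.7-fold and 15.4-fold at 24 h and 13.0-fold and 13.9-fold at 48 h. For ETV5 the difference was 0.87 (0.42 to 1.31, limma adjusted p = 0.0297) at 24 h and -0.60 (-1.05 to -0.16, adjusted p = 0.0772) at 48 h. ELK3 at 24 h stood at -0.64 (-0.93 to -0.34, limma adjusted p = 0.0192) and ETS2 at 48 h at -0.54 (-0.92 to -0.17, adjusted p = 0.0615). EGR2, at the minimum only in MMACSF under DMSO, had 0.66 (0.24 to 1.09, limma adjusted p = 0.0668) and 0.67 (0.24 to 1.10, adjusted p = 0.0442). ETV4 and EGR3 had intervals that include 0 at both times: -0.12 to 1.09 and -0.98 to 0.23 for ETV4, and -0.40 to 0.50 and -0.57 to 0.34 for EGR3. Those intervals do not show that the 2 genes changed alike, since they are wide.

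**Figure D4:**
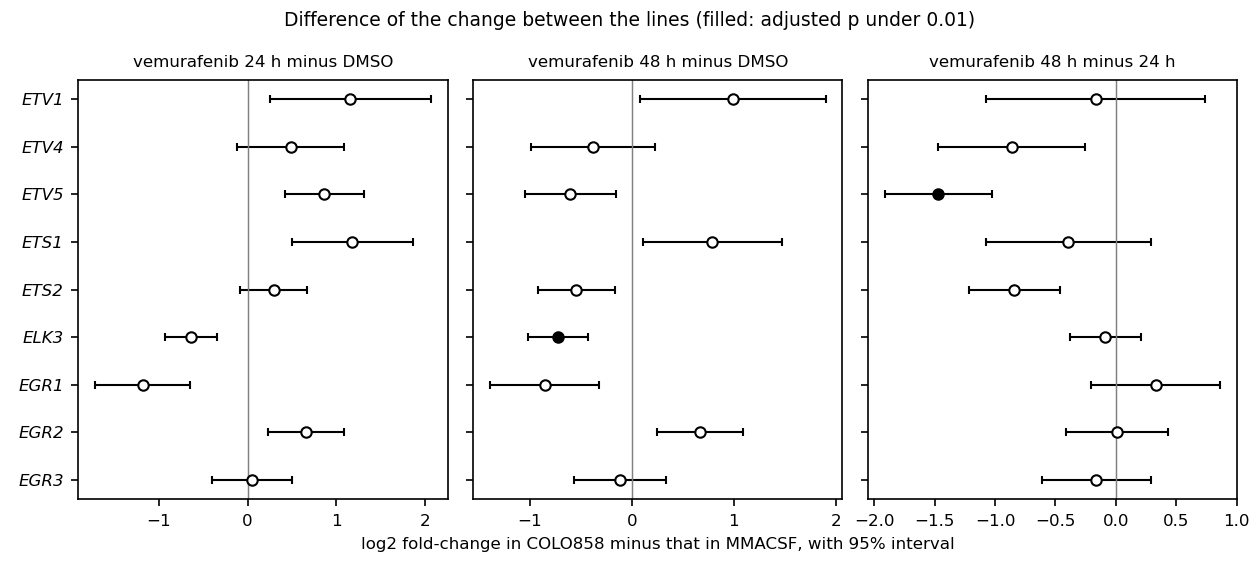
Difference of the log2 changes, COLO858 minus MMACSF (x axis), for the 9 genes in 3 contrasts, with points for the limma estimate and bars for its 95% interval. ETV5 from 24 to 48 h (-1.47) and ELK3 at 48 h (-0.72) passed the threshold.

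Of the 22 other ETS genes, 12 were tested in COLO858 and 9 in MMACSF. In COLO858 1 rose and 2 fell at 24 h and 2 fell at 48 h, and in MMACSF limma called none at either time, with 2 at an unadjusted p under 0.05 at each. The shares of all genes called higher and lower in COLO858 were 4.11% and 5.71% at 24 h and 4.74% and 4.73% at 48 h. For MMACSF they were 2.22% and 3.6%, then 3.42% and 5.41%. FLI1, an ETS factor of blood vessels and blood cells, fell in COLO858 from 2.62 and 3.19 FPKM to 0.498 and 0.623 at 24 h and 0.320 and 0.417 at 48 h. It reached the minimum through DMSO only, so it could be tested only by being higher there. Its log2 changes were -1.32 (SE 0.148, limma adjusted p = 0.00416) and -1.51 (SE 0.148, adjusted p = 0.0032), and it was not tested in MMACSF. ELF4, an ETS factor known from lymphocytes, fell in COLO858, with changes of -1.38 (SE 0.146, limma adjusted p = 0.00358) and -1.17 (SE 0.146, adjusted p = 0.0059). In MMACSF the ELF4 changes were 0.25 (limma adjusted p = 0.255) and 0.38 (adjusted p = 0.104), and the lines differed by -1.63 (SE 0.161, limma adjusted p = 0.000879) and -1.55 (SE 0.161, adjusted p = 0.000537). EHF, an epithelial ETS factor, was at 0.975 and 1.22 FPKM in COLO858 at 24 h. It held 0.008 and 0.015 FPKM in DMSO and 0.031 and 0.068 at 48 h. As EHF passed the minimum through its 24 h group alone, it could be tested only by being higher there. In COLO858 the other ETS genes tested had a median log2 change of 0.135 at 24 h and 0.06 at 48 h, against 0.25 and 0.13 for MMACSF. The median over all genes tested was 0.06 and -0.01 in COLO858 and 0.07 and 0.06 in MMACSF.

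Of the genes tied to CIC or COP1 (CIC, its partners ATXN1 and ATXN1L, the COP1 ligase gene RFWD2, DET1 and TRIB2), all 6 were tested. TRIB2, a pseudokinase that brings substrates to COP1, rose in MMACSF by 0.95 (SE 0.127, limma adjusted p = 0.00861) at 24 h and by 1.08 (SE 0.127, adjusted p = 0.00504) at 48 h. In COLO858 its changes were 0.00 and -0.29, and the lines differed by -0.95 (SE 0.162, limma adjusted p = 0.00957) and -1.37 (SE 0.162, adjusted p = 0.000977). In COLO858 limma called none of the 6, with 3 at an unadjusted p under 0.05 at each time. The EGR relatives and corepressors (EGR4, WT1, NAB1, NAB2) gave no call among the 2 tested in COLO858 or the 3 in MMACSF, with at most 1 at an unadjusted p under 0.05. SRF and its coactivators, through which EGR genes are switched on, gave no limma call among the 3 tested in each line, again with at most 1 at an unadjusted p under 0.05.

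Of 21 other immediate early genes, 18 were tested in COLO858, where 4 rose and 6 fell at 24 h and 4 rose and 5 fell at 48 h. Of all genes tested there 4.11% rose and 5.71% fell at 24 h, and 4.74% and 4.73% at 48 h. KLF4 (2.94 and 1.79 FPKM in DMSO) and ARC (1.90 and 1.17) passed the minimum in COLO858 through DMSO only. They could be tested in that line only by being higher there. In MMACSF 19 were tested, and 3 fell and none rose at each time, while 3.6% of all genes fell at 24 h and 5.41% at 48 h. CYR61, a secreted matrix protein gene, rose in COLO858 by 2.38 (SE 0.131, limma adjusted p = 0.000829) and by 4.14 (SE 0.131, adjusted p = 0.000249). ATF3, a stress-induced factor, rose there by 1.54 (SE 0.216, limma adjusted p = 0.00772) and by 2.72 (SE 0.216, adjusted p = 0.00182). The members EGR1 and EGR3 fell in this same line. In MMACSF CYR61 changed by 0.62 (limma adjusted p = 0.0372) and 0.18, and NR4A3, an orphan nuclear receptor, fell, with changes of -2.32 (SE 0.149, adjusted p = 0.00157) and -2.31 (SE 0.149, adjusted p = 0.001). This list had medians of -0.18 (24 h) and -0.23 (48 h) in COLO858, beside 0.06 and -0.01 over all genes. For MMACSF its medians were -0.09 and -0.05, beside 0.07 and 0.06.

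The 13 genes of ERK output, most of them known to follow ERK activity, had 12 tested in each line. Of these, 7 fell at each time in COLO858, and 7 and 8 in MMACSF, with none called higher. Beside them, 5.71% of all genes tested in COLO858 fell at 24 h and 4.73% at 48 h. In MMACSF 3.6% of all genes tested fell at 24 h and 5.41% at 48 h. DUSP5 and EPHA4 passed the minimum in MMACSF through DMSO only. They could be tested in that line only by being higher there. SPRY4, a feedback inhibitor of receptor signalling, fell in COLO858, with changes of -4.82 (SE 0.120, limma adjusted p = 0.000209) and -4.90 (SE 0.120, adjusted p = 0.000137). In MMACSF its changes were -3.57 (SE 0.138, limma adjusted p = 0.000503) and -2.76 (SE 0.138, adjusted p = 0.000504). FOSL1, an AP-1 subunit, fell by limma in both lines, with changes of -3.005 and -2.04 in COLO858 and of -3.86 and -3.59 in MMACSF. CCND1, which encodes cyclin D1, also fell, with changes of -3.14 and -1.76 in COLO858 and of -3.08 and -2.64 in MMACSF. The median log2 change of this list was -1.68 (24 h) and -1.25 (48 h) for COLO858, beside 0.06 and -0.01 over all genes. It was -1.43 and -1.33 for MMACSF, beside 0.07 and 0.06.

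The genes whose pattern was most like that of a member were found by Pearson's r over the 12 libraries, centred on the mean of each line, among 11700 genes tested in both lines. They are a description, since the 12 points share 6 groups and each line's 2 replicates. For ETV4 they were SDC3 (r = 0.996), SH2D5 (0.994) and the member EGR3 (0.994). For EGR3 they were ETV4 (0.994), SDC3 (0.993) and TRPV2 (0.989), and for EGR1 SSRP1 (0.997), TRPV2 (0.990) and DUSP4 (0.989). Those of ETV5 were EIF4A1 (0.985), MTHFD1 (0.978) and TOMM5 (0.975), and those of ETV1 HSPD1 (0.984), CDC16 (0.982) and CCT5 (0.982). ETS1 was matched by OSBPL2 (0.987), CC2D1B (0.987) and TMEM87A (0.986), and ETS2 by RRP1B (0.976), PTDSS1 (0.962) and LDLRAD3 (0.961). ELK3 was matched by HOXB9 (0.993), TNFAIP3 (0.989) and SPRR2D (0.986). EGR2, untested in COLO858, was left out.

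The replicates also leaned the same way across groups. Replicate 2 held more ETS1 than replicate 1 in 6 of 6 groups, by 1.19 to 1.33 times, and more ETV5 in 6 of 6, by 1.08 to 1.20 times. It held less ETV4 in 6 of 6, at 0.729 to 0.932 times replicate 1. ETV1 was higher in replicate 2 in 5 groups, ETS2 in 4, ELK3 and EGR2 in 3, and EGR1 and EGR3 in 1. Replicate 2 is also the library with the higher MIR4461 share in each group, and the part of that share in these differences was not tested.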

How the data were processed

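RNA was sequenced from 12 libraries (TruSeq stranded poly(A) kit, single reads). The authors mapped reads to hg19 with TopHat and deposited FPKM values from Cuffdiff, in 1 table per line; versions, annotation, strand setting and library scaling are not given in the sources used here. No column of another sample was present (0 columns). Groups follow the labels.

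From these deposited FPKM values, log2(FPKM + 1) was fitted with limma 3.58.1 in R 4.3.3 (3 groups of a line, empirical Bayes with trend), for genes whose mean reached 1 FPKM in some group. P-values were adjusted by Benjamini-Hochberg over all genes tested, at 0.01; the interaction used all 12 libraries. The log2 scale, rather than a count model, was used because counts were not analysed here. Tested on simulated data with 200 genes changed by a log2 of 2, the fit recovered 186 in COLO858 (9692 genes, 48 h) and 196 in MMACSF (9712 genes, 48 h), with 0 and 2 false calls. The simulated noise was independent between libraries, for genes over 2 on this scale in DMSO and without small RNA genes. In the real data same-numbered libraries deviate together, and EGR2, EGR3 and, in COLO858, ETS2 lie under that level. These rates therefore check the code and do not give the error rates of the real data.

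The members and the other gene lists were chosen with earlier results of these data known. All 9 members are named; from each other list, the 3 genes with the largest change among those past the threshold against DMSO; for likeness, the 3 genes of highest correlation per member. Alternatives were 0.1 FPKM added, other minimums, median-ratio scaling, no trend, a threshold of 0.05, no small RNA genes, only the groups compared, a replicate block, and each library left out. One marker gene is not reported here. Positions are from GENCODE on GRCh37 and promoters from RefSeq. Figures used matplotlib 3.10.9.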

Additional observations from a re-analysis of the deposited data

Results flagged for a closer look

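By the interaction test the 2 lines differed in how ETV5 moved from 24 to 48 h, at -1.47 on the log2 scale (COLO858 minus MMACSF, SE 0.194, limma adjusted p = 0.00352). Both 48 h libraries of MMACSF held more ETV5 than both 24 h libraries, and in COLO858 both held less. The call was lost with only the groups compared and in some fits without 1 library, where the estimate stayed from -1.58 to -1.36. For this contrast 1 of 9 members and 2.96% of all genes tested were called.

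The change of ELK3 at 48 h against DMSO also differed by the interaction test, at -0.724 (SE 0.129, limma adjusted p = 0.00701). The call was lost with median-ratio scaling, without the small RNA genes and with only the groups compared. It was also lost whichever of the 12 libraries was left out, while the estimate stayed from -0.77 to -0.68. For this contrast 1 of 9 members and 7.48% of all genes tested were called. In each line the 2 drug libraries held less ELK3 than the 2 DMSO libraries.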

How the results depend on the processing

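With 2 libraries a group and no counts, the number of members called moved with the fit, while no member past the threshold changed direction. The calls of ETV4 in both lines and of EGR1 in COLO858 stood without any 1 library. A fit without 1 library has less information on the spread, so a call lost in it need not mean a moved estimate. Against DMSO the reported counts are 6 (COLO858, 24 h), 7 (COLO858, 48 h), 5 (MMACSF, 24 h) and 5 (MMACSF, 48 h). Fitting only the groups compared gave 3, 3, 2 and 4 for these. It gave 0 instead of 1 for the line difference at 48 h and 0 instead of 1 for that from 24 to 48 h. Adding 0.1 FPKM gave 3 and 3 in MMACSF, and 2 and 2 for those line differences. No minimum gave 3 and 3 in MMACSF and 1 for the line difference at 24 h, and a minimum of 10 FPKM gave 2 and 2 in MMACSF. Median-ratio scaling, which moved the median of all genes by at most 0.07, gave 1 for the line difference at 24 h and 0 at 48 h; leaving out the small RNA genes gave 0 at 48 h. A threshold of 0.05 gave 1 in MMACSF from 24 to 48 h, and 4, 3 and 2 for the line differences at 24 h, at 48 h and from 24 to 48 h.

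Leaving out 1 library at a time gave 2 to 3 members in COLO858 at 24 h and at 48 h, 2 to 2 in MMACSF at 24 h and 1 to 4 at 48 h, 0 to 0 within a line from 24 to 48 h, 0 to 0 for the line differences at 24 and at 48 h, and 0 to 1 for that from 24 to 48 h. Uncalled values changed sign there. From 24 to 48 h in COLO858 ETV1 ran from -0.29 to 0.21 (0.0206 with median-ratio scaling), ETS1 from -0.34 to 0.0618 and EGR3 from -0.24 to 0.0291. In MMACSF ETV1 ran from -0.0705 to 0.33, ELK3 from -0.0230 to 0.0599, EGR1 from -0.16 to 0.25 and EGR2 from -0.21 to 0.10. In the line differences EGR3 ran from -0.0875 to 0.18 at 24 h and from -0.23 to 0.00441 at 48 h (0.55 with 0.1 FPKM added); from 24 to 48 h ETV1 ran from -0.42 to 0.0789 and EGR2 from -0.15 to 0.16 (-0.0787 with 0.1 FPKM added). The cause was not tested.

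With the replicate number as a block, the members called were 7, 8, 7 and 6 in the 4 comparisons with DMSO, 1 in COLO858 and 1 in MMACSF from 24 to 48 h, and 3, 3 and 4 for the line differences. Over all genes the block called 5719 instead of 1247, 5549 instead of 1202, 3284 instead of 734 and 3790 instead of 1113 against DMSO. Members past the threshold with the block and not in the reported fit were, with limma adjusted p, ETV1 in COLO858 (0.0016 at 24 h, 0.00149 at 48 h), ETS1 (0.00376, 0.00133) and, at 24 h, ETS2 (0.00502) in MMACSF. From 24 to 48 h they were ETV4 in COLO858 (0.00631) and ETV5 in MMACSF (0.00974). In the line differences they were ETS1 (0.000211, 0.000405) and ETV5 (0.000727, 0.0017) at 24 and 48 h, ELK3 at 24 h (0.00193), and from 24 to 48 h ETV4 (0.0043), ETS1 (0.00933) and ETS2 (0.00517). The labels do not say what the numbers share. Deviations of same-numbered libraries correlated at 0.196 to 0.211 in COLO858 and 0.0628 to 0.113 in MMACSF, and without small RNA genes at 0.753 to 0.779 and 0.590 to 0.673, as a hint from the data and not the design.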
